A study of Mus musculus with 35 samples.

Results

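The genes of fatty acid oxidation were followed in the mouse lung: 34 genes for the enzymes, carriers and regulators by which cells burn fat. They were the rows of the deposited expression table whose gene symbol is on a list of 34 names, out of 22211 rows in all. Each of the 34 passed the filter on low values (a value of 1 or more in at least 3 libraries), as did 16786 genes of the table. The list was set by gene function and the rule uses no measured value, but the members were chosen with earlier results of these data known. Each library was made from the left lung lobe of 1 male mouse of 7 to 9 weeks. Mice received under the skin, on 2 consecutive days, a control IgG (3 µg per g body weight), the antibody anti-Ly6G of clone 1A8 (3 µg per g), which is directed at a neutrophil surface protein, or DT, diphtheria toxin (10 ng per g). Control and anti-Ly6G mice were wild type. DT mice had the genotype MRP8-Cre;iDTR-flox, in which a Cre driven from a promoter of myeloid cells switches on a toxin receptor. Lobes were perfused with PBS and taken on the following day at 1 morning clock time, which was ZT4, early in the light phase, for mice under normal light. For mice kept in cabinets with inverted light it was ZT16, in the dark phase, so time of day and housing cannot be told apart in any comparison over time. Per time there were 7 control mice and 7 anti-Ly6G mice, of which 3 each belonged to a July 2017 batch and 4 each to a September 2017 batch. The DT groups held 4 mice at ZT4 and 3 at ZT16, all of an April 2018 batch without control mice, so that toxin, genotype and batch cannot be told apart.

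Long-chain fatty acids enter mitochondria through the carnitine shuttle, are shortened by repeated rounds of beta-oxidation, and pass their electrons to the respiratory chain through the electron transfer flavoprotein. Peroxisomes shorten other chains, and nuclear receptors of the PPAR family with their coactivators drive many of these genes in liver, heart and muscle. In the lung, alveolar type 2 cells and macrophages handle much lipid, since surfactant is largely phospholipid.

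The 250 bases before the start site are shown for Cpt1a, Acadl, Etfa and Etfb, which were lower at ZT16 in both control and anti-Ly6G mice, so that the search for motifs described next can be followed. They were read from RefSeq's promoter windows of build GRCm38.p6, 5′ to 3′ on the gene's own strand, and capitals mark a match to a motif searched.
Cpt1a, chr19:3323051-3323300, plus strand: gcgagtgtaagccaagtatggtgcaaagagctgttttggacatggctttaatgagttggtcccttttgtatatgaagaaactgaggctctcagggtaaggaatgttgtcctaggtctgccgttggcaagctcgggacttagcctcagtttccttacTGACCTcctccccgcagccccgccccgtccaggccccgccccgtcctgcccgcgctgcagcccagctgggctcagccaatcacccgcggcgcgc
Acadl, chr1:66863310-66863559, minus strand: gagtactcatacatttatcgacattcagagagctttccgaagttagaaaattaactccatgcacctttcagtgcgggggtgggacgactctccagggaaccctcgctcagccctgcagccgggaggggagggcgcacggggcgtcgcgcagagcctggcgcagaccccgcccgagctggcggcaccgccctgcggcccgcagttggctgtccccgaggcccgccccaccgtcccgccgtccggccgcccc
Etfa, chr9:55512244-55512493, minus strand: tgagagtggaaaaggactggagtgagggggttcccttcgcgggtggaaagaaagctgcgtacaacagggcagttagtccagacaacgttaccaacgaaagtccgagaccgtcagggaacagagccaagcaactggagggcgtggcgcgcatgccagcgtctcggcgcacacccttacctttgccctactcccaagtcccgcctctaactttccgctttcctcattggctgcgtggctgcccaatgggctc
Etfb, chr7:43443822-43444071, plus strand: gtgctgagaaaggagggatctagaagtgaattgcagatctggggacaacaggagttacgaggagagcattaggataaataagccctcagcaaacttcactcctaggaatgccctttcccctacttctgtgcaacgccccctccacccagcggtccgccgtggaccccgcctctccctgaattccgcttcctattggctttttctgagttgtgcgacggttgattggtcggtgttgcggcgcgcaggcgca
Of the 34 genes, 28 had a promoter in that table, with 30 windows of 250 bases before to 50 bases after the start. Both strands were searched for AGGTCA, a core site of nuclear receptors, for TAGGTCA, which contains it, for AGGTCA repeated after 1 base of any kind (DR1), for the E-box CACGTG and for TTATGTAA, a D-box. AGGTCA was present for 4 genes (Acadm, Acadvl, Cpt1a and Plin5), and in 16.3% of all 32851 windows. The match in Cpt1a lies from -94 to -89 and reads on the minus strand of the window, which is why the capitals read TGACCT. Only Acadvl held TAGGTCA (2.61% of all windows) and only Pdk2 held CACGTG (7.15%). The repeat (0.0396% of all windows) and TTATGTAA (0.938%) matched no member window. The 250 bases before the start had a median GC content of 59.2% in windows of the members, against 52.4% over all windows. The windows printed for Acadl, Etfa and Etfb held no match. Hadha and Hadhb, the subunit genes of the trifunctional protein, start 273 bases apart on chromosome 5 and are transcribed away from each other.

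Read depth behind the normalised values is unknown, and they sum to between 962649 and 1033550 per library. Genes defining lung tissue were abundant in every library (5 of 5 genes, summed value 41020 to 59530). In DT mice their sum was 41020 to 50450 at ZT4 and 54400 to 59530 at ZT16, without overlap. There 1 of the 5 genes was higher at ZT16, and the part of this shift in the changes of the members was not tested. The summed value of 8 mature neutrophil genes had a median of 62.9 in control and 39.5 in anti-Ly6G mice at ZT4, and 54.5 and 28.5 at ZT16. Of the 7 neutrophil genes tested, 0 passed between anti-Ly6G and control mice at either time, with median differences of -1.18 and -0.56 (-0.75 at ZT4 without the library of the highest neutrophil sum). 3 libraries stood apart. ZT4_control September #2 had a neutrophil sum of 744.5, ZT4_control September #3 an adipocyte sum of 352.1, and ZT16_DT April #1 the highest mean log2 value of the 34 genes (5.56 against 5.20 and 5.28 in the other ZT16 DT mice). For some results on the members that moved without one of them, the value without it is given beside the result. Others, among them small changes that did not pass, may also have moved, and their values are not given. Fewer cells of a type and less RNA per cell cannot be told apart in these bulk samples.

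Each change is a difference in log2(value + 0.5) with its SE, fitted by limma, and a time change is ZT16 minus ZT4, with p-values adjusted by the Benjamini-Hochberg method over 16786 genes and called at 0.05. In control mice 10 of the 34 genes fell from ZT4 to ZT16 and 0 rose, where 4.38% of all genes fell and 4.65% rose. The median change of the 34 was -0.14, against -0.00 over all genes tested. In anti-Ly6G mice 7 fell and 2 rose (10.4% and 10.6% of all genes), with a median of -0.08. The 7 genes that fell in anti-Ly6G mice, Acadl, Cpt1a, Slc25a20, Etfa, Etfb, Acaa1a and Acaa2, were all among the 10 of control mice. Of all genes, 514 were lower in both, 69.8% of those lower in control and 29.6% of those lower in anti-Ly6G mice. Over both treatments 14 fell and 1 rose, where 15.2% and 14.1% of all genes did, and the median was -0.10. In DT mice 2 fell and 2 rose (9.98% and 5.3% of all genes), with a median of 0.04. None of these 4 calls (Cpt1a, Etfdh, Acads and Etfb) was kept when the 2 DT groups were fitted alone, with adjusted p of 0.0569 to 0.0833 in limma. Without ZT16_DT April #1 the median was -0.06, and 3 members passed in DT mice, all lower (Cpt1a, Slc25a20 and Eci2). The share of members that fell was thus above the share of all genes in control mice, in anti-Ly6G mice and over both treatments, while in DT mice it was not.

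**Figure D1:**
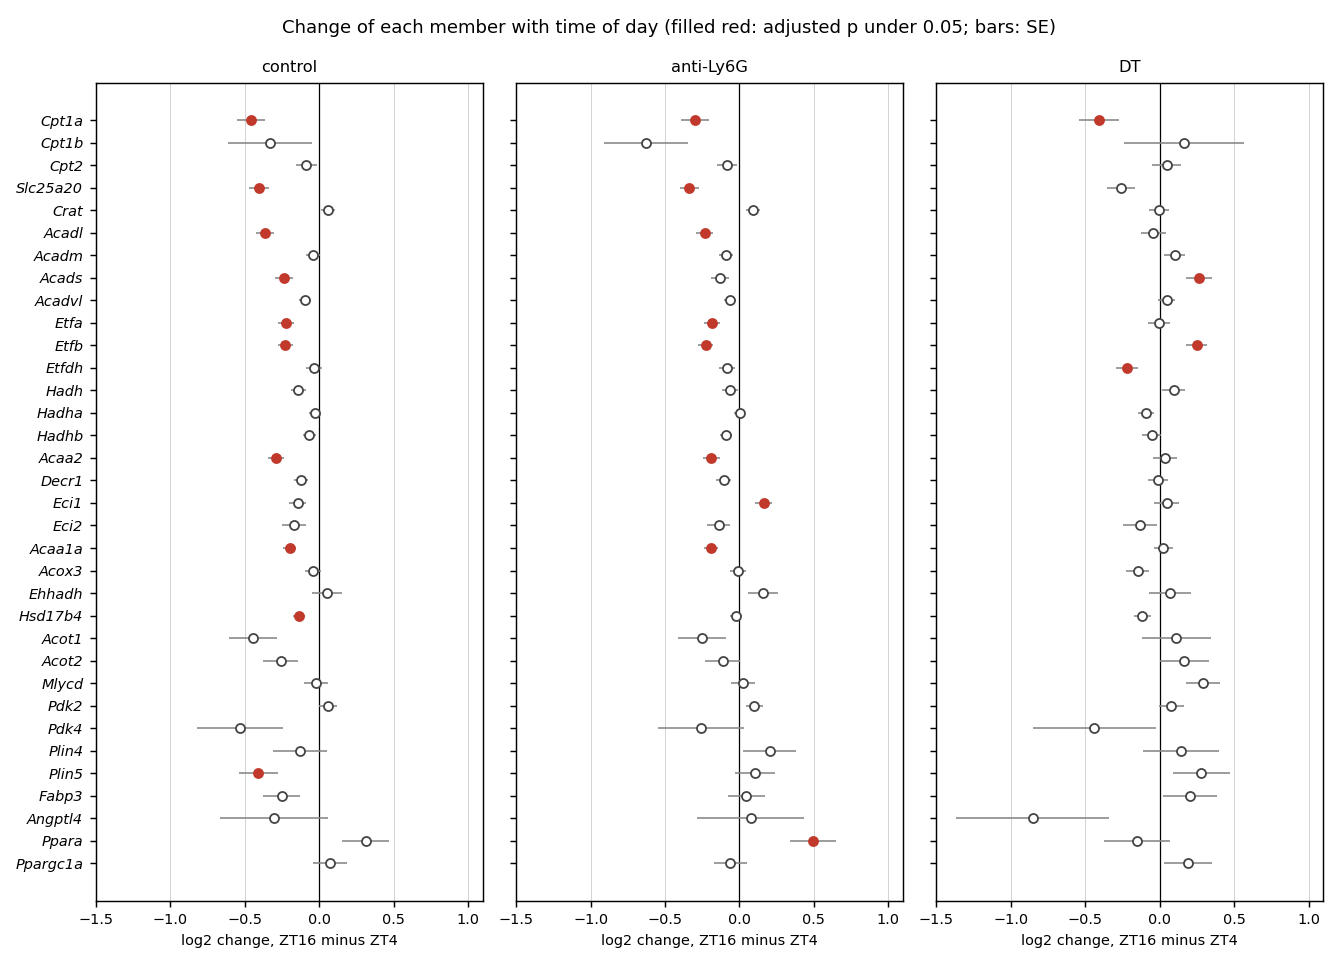
Log2 change from ZT4 to ZT16 (x axis) of each of the 34 genes (y axis) in control, anti-Ly6G and DT mice, with bars for the SE and filled red points for an adjusted p under 0.05. Filled points lie to the left of 0 in control mice (10 genes) and mostly to the left in anti-Ly6G mice (7 of 9), while DT mice have 2 on each side.

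Of the carnitine shuttle, 2 genes fell in both treatments. Cpt1a, the outer membrane carnitine palmitoyltransferase that limits entry of long chains, lies at chromosome 19, 3322334 to 3385733 (GRCm38). Its deposited value in control mice was 123 to 158 at ZT4 (median 142) and 87.5 to 120 at ZT16 (median 103), with no overlap. It fell by 0.46 on the log2 scale (-0.46 ± 0.09, adjusted p = 0.00133). In anti-Ly6G mice its values were 114 to 173 (median 138) and 97.0 to 138 (median 118), which overlap, and the change was -0.30 ± 0.09 (adjusted p = 0.0207). That call was lost without ZT4_antiLy6G July #1 (-0.24) or ZT16_antiLy6G September #4 (-0.26). Slc25a20 encodes the inner membrane exchanger of acylcarnitine for carnitine (chromosome 9, 108662088 to 108684641). Its values were 33.1 to 39.0 at ZT4 (median 36.3) and 23.7 to 30.5 at ZT16 (median 26.9) in control mice. In anti-Ly6G mice they were 33.3 to 41.7 (median 36.4) and 26.4 to 32.4 (median 28.1). Every ZT16 value lay under every ZT4 value within both treatments, and the changes were -0.40 ± 0.07 (adjusted p = 9.8e-05) and -0.34 ± 0.07 (adjusted p = 4.6e-04). In DT mice Cpt1a was 138, 150, 158 and 127 at ZT4 and 143, 89.9 and 96.4 at ZT16. It fell there too (-0.41 ± 0.13, adjusted p = 0.0343), although ZT16_DT April #1 lay within the ZT4 range, and the change without that library was -0.61. The call was lost without ZT4_DT April #1 (-0.42), #2 (-0.39) or #3 (-0.36), or without ZT16_DT April #2 (-0.28) or #3 (-0.33). Slc25a20 in DT mice was 36.4, 34.4, 35.4 and 36.8 at ZT4 and 36.8, 27.7 and 25.9 at ZT16, with a change of -0.26 ± 0.10 that did not pass (adjusted p = 0.0611). Without ZT16_DT April #1 it was -0.41 and passed in limma (adjusted p = 0.00799). Again the first ZT16 mouse sat with the ZT4 mice while the other 2 were lower. Cpt2, the inner membrane transferase, was at medians of 25.1 and 24.3 in control mice and did not pass (-0.09 ± 0.07, adjusted p = 0.483). Crat, the transferase of short chains, had medians of 61.7 and 63.3 and likewise did not pass (0.06 ± 0.05). Cpt1b, the muscle form of the first enzyme, was low, with medians of 12.1 and 9.14, and its groups overlapped widely (-0.33 ± 0.28). Of its annotated exon bases, 81.4% are shared with the same-strand gene Gm44502, so its value is uncertain.

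**Figure D2:**
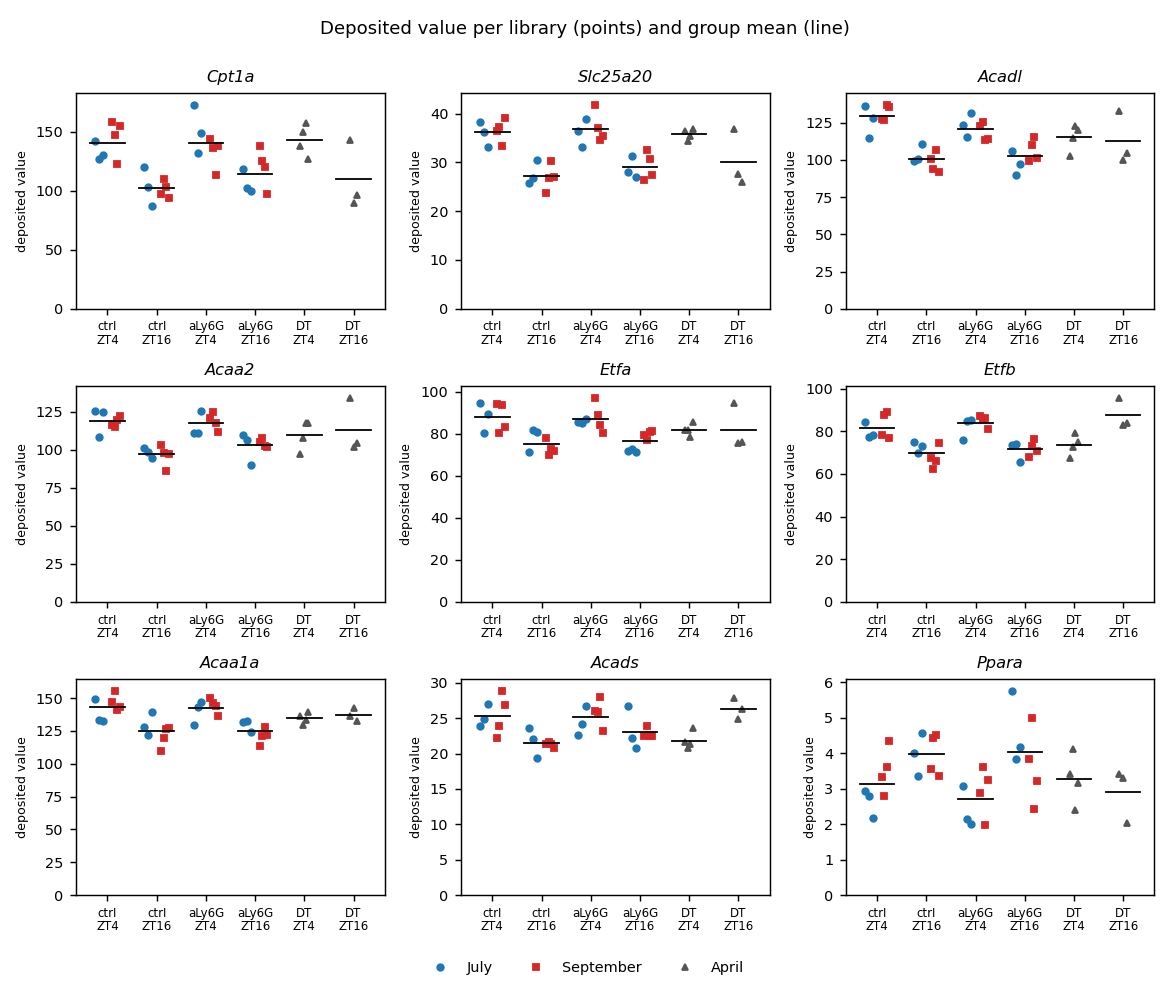
Deposited value (y axis, from 0) per library for 9 genes in the 6 groups (x axis), with July, September and April mice marked and lines for group means. Within control mice and within anti-Ly6G mice, the values of Slc25a20 and Acaa2 at ZT16 all sit under those at ZT4. For Etfb the 3 ZT16 DT mice sit above the 4 ZT4 DT mice.

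The acyl-CoA dehydrogenases carry out the first step of each round, each for a range of chain lengths. Acadl, the long-chain enzyme (chromosome 1, 66830839 to 66863277), had the smallest adjusted p of the 34 in control mice. Its values there were 115 to 137 at ZT4 (median 128) and 92.0 to 111 at ZT16 (median 101), with no overlap, and it fell by 0.36 (-0.36 ± 0.06, adjusted p = 8.8e-05). In anti-Ly6G mice they were 113 to 131 (median 123) and 90.0 to 115 (median 101), and 6 of 7 ZT16 mice lay under the lowest ZT4 mouse (-0.23 ± 0.06, adjusted p = 0.0048). Acads, the short-chain enzyme, was 22.3 to 28.8 (median 24.96) and 19.3 to 23.6 (median 21.4) in control mice, where it fell (-0.23 ± 0.06, adjusted p = 0.0112). In anti-Ly6G mice the medians were 25.9 and 22.5, and the change did not pass (-0.13 ± 0.06, adjusted p = 0.133). In DT mice Acads was 21.6, 20.8, 21.4 and 23.7 at ZT4 and 27.9, 24.9 and 26.3 at ZT16, and it rose (0.27 ± 0.09, adjusted p = 0.0342). All 3 ZT16 DT mice were above all 4 ZT4 DT mice. The call was lost in 5 of the 7 fits that left out 1 DT mouse each, with changes of 0.22 to 0.31 over the 7: those without ZT4_DT April #1, #2 or #3, ZT16_DT April #1 or ZT16_DT April #3. Acadl in DT mice was 103, 115, 123 and 120 at ZT4 and 133, 99.6 and 105 at ZT16, which overlap (-0.04 ± 0.09, and -0.17 without ZT16_DT April #1, neither past the threshold). Acadm, the medium-chain enzyme, did not pass in control mice (91.6 and 90.3 as medians, -0.04 ± 0.05) or anti-Ly6G mice (87.8 and 83.2, -0.09 ± 0.05). Acadvl, the very-long-chain enzyme, passed only over both treatments together (-0.08 ± 0.03, adjusted p = 0.0309). Its call there was lost without ZT4_antiLy6G September #3, ZT4_control September #3, ZT16_antiLy6G September #1 or ZT16_control September #2, and the 28 such fits gave -0.09 to -0.07. Of its exon bases 42.9% overlap Dvl2 on the opposite strand, and strand use in counting is not stated.

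The electron transfer flavoprotein takes electrons from these dehydrogenases. Its subunit genes Etfa (chromosome 9, 55454508 to 55512243) and Etfb (chromosome 7, 43444083 to 43457800) fell by like amounts in control mice. Etfa was 80.3 to 94.7 at ZT4 (median 89.4) and 69.9 to 81.6 at ZT16 (median 72.8), a change of -0.22 ± 0.05 (adjusted p = 0.00589). Etfb was 76.7 to 89.1 (median 78.5) and 62.1 to 75.1 (median 70.0), a change of -0.23 ± 0.05 (adjusted p = 0.00272). The groups were apart for Etfb and overlapped for Etfa, where 5 of 7 ZT16 mice lay under the lowest ZT4 mouse. In anti-Ly6G mice Etfa went from a median of 85.8 to 76.9 (-0.19 ± 0.05, adjusted p = 0.0113) and Etfb from 85.2 to 72.9 (-0.23 ± 0.05, adjusted p = 0.00131). In DT mice the subunits parted. Etfa was 81.8, 82.0, 78.3 and 85.5 at ZT4 and 94.4, 75.8 and 75.9 at ZT16 (-0.01 ± 0.08, and -0.11 without ZT16_DT April #1, neither past the threshold). Etfb was 67.2, 72.7, 79.2 and 74.9 at ZT4 and 95.4, 82.8 and 84.1 at ZT16, so that each ZT16 mouse was above each ZT4 mouse. It rose there (0.25 ± 0.07, adjusted p = 0.0168), a call lost without ZT4_DT April #1 (0.21) or ZT16_DT April #1 (0.18). For Etfb, 58.2% of exon bases are shared with the same-strand Gm45233 and a microRNA gene, which makes its value uncertain. Etfdh, the oxidoreductase that hands the electrons on to ubiquinone, did not pass in control mice (medians 43.6 and 44.1, -0.03 ± 0.05) or anti-Ly6G mice (43.4 and 42.1, -0.08 ± 0.05). In DT mice it was 44.7, 45.6, 45.0 and 46.1 at ZT4 and 39.7, 35.7 and 41.4 at ZT16 and fell (-0.22 ± 0.08, adjusted p = 0.0448). That call was lost in each of 6 of the 7 fits that left out 1 DT mouse, all but that without ZT16_DT April #3, with changes from -0.26 to -0.16. It was also lost without the filter on low values, and under upper quartile scaling the change was -0.15.

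Among the genes for later steps of the mitochondrial round, only the thiolase gene Acaa2 fell in both control and anti-Ly6G mice. Acaa2, the mitochondrial 3-ketoacyl-CoA thiolase that cleaves off acetyl-CoA, was 108 to 125 at ZT4 (median 119) and 85.8 to 103 at ZT16 (median 97.8) in control mice. In anti-Ly6G mice it was 111 to 126 (median 118) and 90.0 to 109 (median 105). All ZT16 mice lay under all ZT4 mice in both treatments, with changes of -0.29 ± 0.06 (adjusted p = 6.9e-04) and -0.19 ± 0.06 (adjusted p = 0.0145). Hadha and Hadhb, the subunits of the trifunctional protein that hydrates, dehydrogenates and cleaves long chains, did not pass. Hadha had medians of 142 and 137 in control mice (-0.03 ± 0.04) and Hadhb 105 and 103 (-0.07 ± 0.04). Hadh, the 3-hydroxyacyl-CoA dehydrogenase of shorter chains, had medians of 104 and 95.6 and passed only over both treatments (-0.10 ± 0.04, adjusted p = 0.0403), a call lost in 12 of 28 fits that left out 1 library each (-0.12 to -0.08). Decr1, the dienoyl-CoA reductase needed for unsaturated chains, went from a median of 50.2 to 47.1 in control and from 50.1 to 46.4 in anti-Ly6G mice, and passed over both (-0.12 ± 0.03, adjusted p = 0.00886). Eci1 and Eci2 are isomerases of unsaturated chains. Eci2 passed only over both treatments (-0.15 ± 0.06, adjusted p = 0.0362), a call lost in 12 of 28 fits that left out 1 library each (-0.17 to -0.13). Eci1 was 27.5 to 33.2 (median 32.1) and 25.8 to 32.9 (median 28.3) in control mice, which did not pass (-0.15 ± 0.06, adjusted p = 0.118). In anti-Ly6G mice it was 24.98 to 30.2 (median 28.9) and 28.4 to 35.4 (median 31.6), where it rose (0.16 ± 0.06, adjusted p = 0.0479). The difference between the 2 time changes of Eci1 was 0.31 ± 0.08, which did not pass over all genes (adjusted p = 0.812). The rise in anti-Ly6G mice was lost in 9 of 14 fits that left out 1 library each (0.13 to 0.19) and under upper quartile scaling (0.14).

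Among peroxisomal enzymes 1 fell in both treatments. Acaa1a, the peroxisomal thiolase (chromosome 9, 119339676 to 119350299), was 133 to 155 at ZT4 (median 143) and 110 to 139.8 at ZT16 (median 127) in control mice. In anti-Ly6G mice it was 130 to 150.0 (median 144) and 113 to 133 (median 124). The changes were -0.20 ± 0.05 (adjusted p = 0.00411) and -0.19 ± 0.05 (adjusted p = 0.00257), and in DT mice the medians were 135 and 136 (0.02 ± 0.06). Hsd17b4, the peroxisomal multifunctional enzyme 2, had medians of 131 and 118 in control mice, where it fell (-0.14 ± 0.04, adjusted p = 0.0296). It lost that call without ZT4_control July #1, September #1 or September #4, or without ZT16_control July #3, September #3 or September #4, with changes of -0.16 to -0.12 over all 14 such fits. In anti-Ly6G mice its medians were 129 and 123 (-0.02 ± 0.04). Ehhadh, the other multifunctional enzyme (medians 9.49 and 10.8 in control mice, 0.05 ± 0.10), and Acox3, an acyl-CoA oxidase (55.8 and 54.0, -0.04 ± 0.05), did not pass in any treatment.

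The thioesterases Acot1 and Acot2, which free fatty acids from acyl-CoA in cytosol and mitochondria, are neighbouring near-copies on chromosome 12, so reads could be split between them in counting. Acot1 was 25.9 to 48.1 at ZT4 (median 41.3) and 20.3 to 33.2 at ZT16 (median 30.2) in control mice. It did not pass there (-0.44 ± 0.16, adjusted p = 0.0782) or in anti-Ly6G mice (-0.25 ± 0.16), and passed over both treatments (-0.35 ± 0.11, adjusted p = 0.02). Without both ZT4_control September #2 and #3 that call was lost as well (-0.32). Acot2 had medians of 16.9 and 14.8 in control mice and did not pass (-0.26 ± 0.12, adjusted p = 0.161). Mlycd, the decarboxylase of malonyl-CoA, the inhibitor of the first carnitine transferase, did not pass in control (-0.02 ± 0.08) or anti-Ly6G mice (0.02 ± 0.08). In DT mice it was 23.9, 24.4, 23.9 and 26.5 at ZT4 and 35.3, 27.2 and 29.1 at ZT16, higher in each ZT16 mouse, and did not pass (0.29 ± 0.11, adjusted p = 0.079, and 0.19 without ZT16_DT April #1). The kinases Pdk2 and Pdk4 shut pyruvate dehydrogenase and so spare glucose when fat is burnt. Pdk2 had medians of 45.5 and 47.0 in control mice and did not pass. Pdk4 varied widely within groups, from 21.6 to 44.1 at ZT4 and from 10.9 to 35.8 at ZT16 in control mice, and did not pass (-0.53 ± 0.29, adjusted p = 0.268).

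Plin4 and Plin5 coat lipid droplets, and Fabp3 binds fatty acids in heart and muscle. Plin5 in control mice was 4.40 to 7.37 at ZT4 (median 5.05) and 2.58 to 4.52 at ZT16 (median 3.87), and it fell (-0.41 ± 0.13, adjusted p = 0.0465). The highest value was that of ZT4_control September #3, the library with the adipocyte sum of 352.1. The change without it was -0.33 and did not pass (-0.35 without both it and ZT4_control September #2, which did not pass), as in 9 of the 14 fits that left out 1 control library, where changes ran from -0.45 to -0.33. In anti-Ly6G mice Plin5 had medians of 4.79 and 5.00 (0.10 ± 0.13). Plin4 was 57.4 in ZT4_control September #3 and 13.2 to 24.5 in the other ZT4 control mice, and it did not pass in any comparison. Its time change in control mice was -0.13 with that library and 0.09 without it. Fabp3 had medians of 30.7 and 25.7 in control mice (-0.25 ± 0.12, adjusted p = 0.212) and 24.9 and 23.3 in anti-Ly6G mice (0.04 ± 0.12). Markers of heart muscle, which expresses these genes strongly, were present in every library, with 16 of 16 genes reaching 1. Their summed value in control mice was 1000 to 1682 at ZT4 (median 1267) and 1010 to 1550 at ZT16 (median 1078). In anti-Ly6G mice it was 778 to 1280 (median 1030) and 947 to 1598 (median 1123), and in DT mice 843 to 1214 (median 955) and 819 to 1363 (median 1344). The median change of the 16 genes with time was -0.16 in control, 0.10 in anti-Ly6G and 0.23 in DT mice, and 1, 0 and 0 of them were lower. Adipocyte markers (8 of 8 reaching 1) summed to 47.2 to 352 and 59.9 to 151 in control mice, 41.2 to 98.8 and 55.0 to 106 in anti-Ly6G mice, and 61.9 to 83.1 and 33.0 to 81.0 in DT mice, at ZT4 and ZT16. Of 6 brown adipocyte markers 3 reached 1, and Ucp1, which defines these cells, was at 0.04 to 0.46 over all libraries. The part of these cell types in the changes of Plin5, Fabp3, Cpt1b and the other members was not tested.

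Of the 3 regulators only Ppara passed, and it rose. It encodes the nuclear receptor PPAR-alpha, an activator of many genes of this pathway. In control mice it was 2.19 to 4.34 at ZT4 (median 2.93) and 3.36 to 4.57 at ZT16 (median 4.02), which did not pass (0.31 ± 0.15, adjusted p = 0.218). In anti-Ly6G mice it was 1.96 to 3.62 (median 2.88) and 2.43 to 5.75 (median 3.85) and rose (0.49 ± 0.15, adjusted p = 0.0211), with 5 of 7 ZT16 mice above the highest ZT4 mouse. That call was lost without ZT4_antiLy6G July #3 (0.44), ZT4_antiLy6G September #3 (0.43), ZT16_antiLy6G July #1 (0.40) or ZT16_antiLy6G September #2 (0.44). Over both treatments Ppara rose (0.40 ± 0.11, adjusted p = 0.00536) in every fit that left out 1 library (0.35 to 0.46). In DT mice it was 3.42, 4.13, 2.41 and 3.16 at ZT4 and 3.42, 3.30 and 2.04 at ZT16 (-0.15 ± 0.22, and -0.26 without ZT16_DT April #1). In anti-Ly6G mice the receptor gene thus rose where 7 genes of the pathway fell. Ppargc1a, the coactivator PGC-1alpha, had medians of 8.09 and 9.22 in control mice and did not pass (0.07 ± 0.11). Angptl4, a secreted inhibitor of lipoprotein lipase and a known PPAR target, spread so widely that its groups could not be separated. It ran from 38.8 to 83.7 at ZT4 and 23.6 to 73.6 at ZT16 in control mice (-0.30 ± 0.36), and from 13.2 to 102 in anti-Ly6G mice at ZT16.

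Anti-Ly6G was compared with control IgG at each time. No member passed: 0 of 34 at ZT4, 0 at ZT16 and 0 over both times, and 0% of all genes did in each of the 3 comparisons. At an unadjusted p under 0.05, limma gave 1 member at ZT4 and 3 at ZT16, with 7.06% and 4.18% of all genes. Eci1 was lower by 0.16 at ZT4 (-0.16 ± 0.06, adjusted p = 0.657) and higher by 0.15 at ZT16 (0.15 ± 0.06, adjusted p = 0.966). Plin5 was 0.36 ± 0.13 higher at ZT16 (adjusted p = 0.966), where its control values of 2.58 to 4.52 overlapped the anti-Ly6G values of 3.96 to 6.32. Hsd17b4 was 0.09 ± 0.04 higher at ZT16. At ZT4 Plin4 differed by -0.35 ± 0.18 and, without ZT4_control September #3, by -0.14, and Fabp3 differed by -0.25 ± 0.12, none past the threshold. The heart muscle markers had a median difference of -0.30 there and the adipocyte markers of -0.35, or -0.25 and 0.03 without that library. Whether the time change differed between treatments was tested as an interaction, which 0 of 34 members and 0% of all genes passed. At an unadjusted p under 0.05, limma gave 2 members, with 6.00% of all genes. These were Eci1 (0.31) and Plin5 (0.51 ± 0.19, adjusted p = 0.812). For Cpt1a the difference between time changes was 0.16 ± 0.13 and for Acadl 0.13 ± 0.08, both in the direction of a smaller fall after anti-Ly6G. Neither difference passed, which does not show that the time changes are alike.

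**Figure D3:**
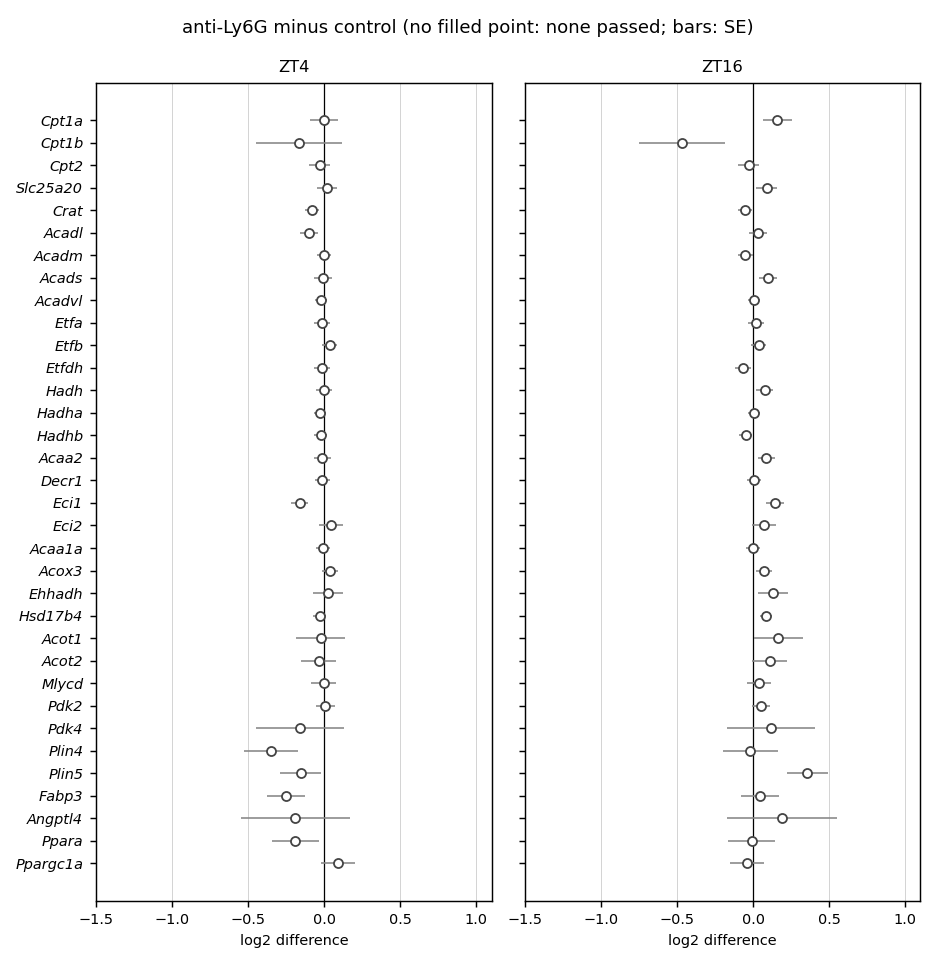
Log2 difference of anti-Ly6G minus control mice (x axis) for each of the 34 genes (y axis) at ZT4 and ZT16, with bars for the SE. No point is filled because none passed, and the values run from -0.35 to 0.09 at ZT4 and from -0.47 to 0.36 at ZT16.

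The July and September mice were then taken apart. In July 6 members fell and 1 rose over both treatments (7.7% and 7.54% of all genes), with a median of -0.05. In September 15 fell and 0 rose (9.62% and 10.1%), with a median of -0.13. Acadl, Cpt1a, Slc25a20, Etfa, Etfb and Acaa2 fell in each batch, although the July call of Etfb was lost in 5 of 12 fits that left out 1 library each (-0.20 to -0.14). Acadl, for example, changed by -0.31 ± 0.06 in July (adjusted p = 0.00109) and by -0.29 ± 0.05 in September (adjusted p = 3.6e-04). Ppara rose in July (0.66 ± 0.16, adjusted p = 0.00485) and was 0.21 higher in September, which did not pass. Within single treatments, control mice had 0 calls among the members in July (1.32% of all genes lower, 1.63% higher) and 9 lower in September (1.97% and 1.81%). Anti-Ly6G mice had 4 lower and 1 higher in July (4.63% and 3.7%) and 3 lower in September (3.82% and 5.9%). The median of the members in control mice was -0.02 in July and -0.20 in September. Tested as a difference between batches, 0 of 34 members passed in control mice (0% of all genes), in anti-Ly6G mice (0.00596%) or over both (0.0715%). At an unadjusted p under 0.05, limma gave 3, 3 and 5 members, with 8.12%, 8.67% and 12.5% of all genes. The difference of anti-Ly6G minus control also passed for no member between batches, at ZT4 or at ZT16 (0% of all genes each).

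**Figure D4:**
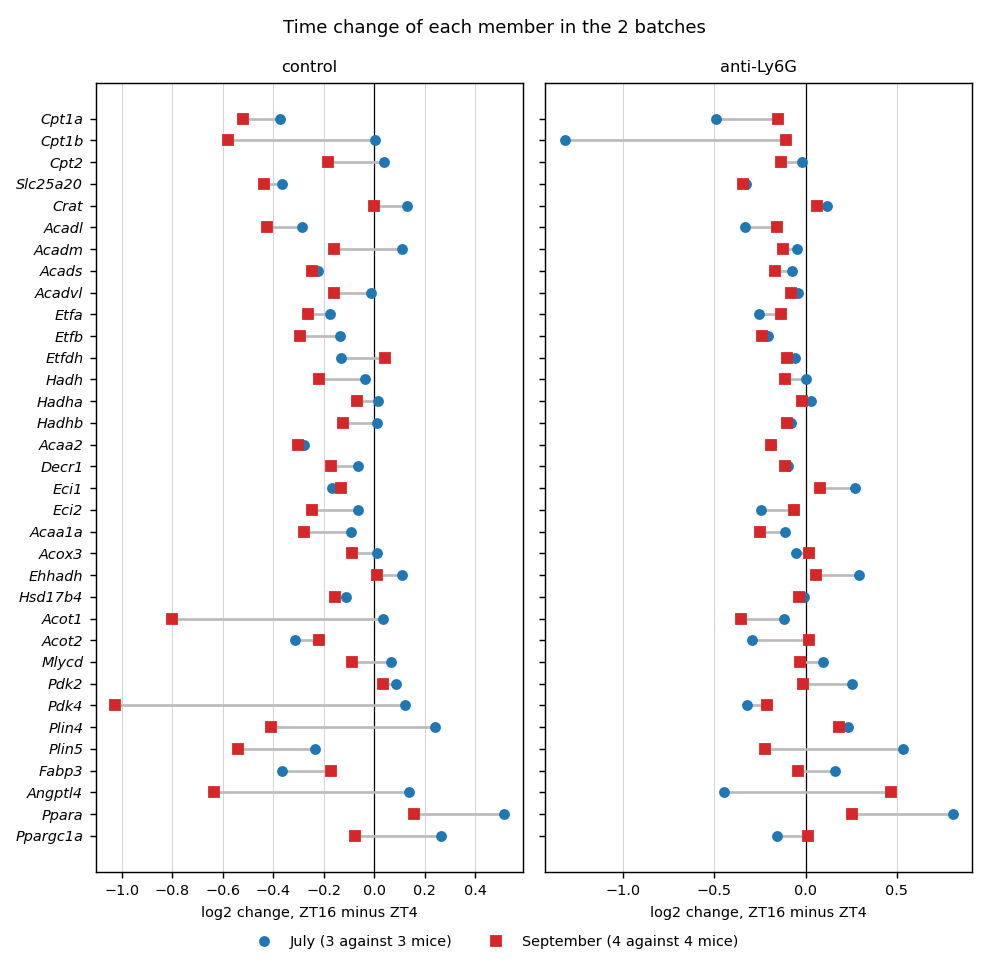
Log2 change from ZT4 to ZT16 (x axis) of each gene (y axis) in July (circles, 3 against 3 mice) and September (squares, 4 against 4 mice), for control and anti-Ly6G mice, with a grey line between the batches. The lines are long for Pdk4 and Acot1 of control mice and for Cpt1b and Angptl4 of anti-Ly6G mice, while the points of Slc25a20 and Acaa2 lie close together.

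For a few members the estimated time changes of July and September lay apart, although the difference between batches passed for no member. Acot1 in control mice was 41.3, 25.9 and 27.4 at ZT4 and 30.3, 31.3 and 33.2 at ZT16 in July. In September it was 43.8, 48.1, 36.6 and 46.5 at ZT4 and 20.3, 21.3, 30.2 and 28.9 at ZT16, where each ZT16 mouse was lower. It fell in September (-0.80 ± 0.20, adjusted p = 0.0182) and was at 0.03 ± 0.23 in July, and the difference between batches did not pass (-0.84 ± 0.30, adjusted p = 0.504). Pdk4 did not pass in either batch. Its change in control mice was 0.12 ± 0.43 in July and -1.03 ± 0.37 in September (adjusted p = 0.117). Plin5 in anti-Ly6G mice was 3.21, 4.61 and 3.90 at ZT4 and 6.32, 5.59 and 5.61 at ZT16 in July. In September it was 4.79, 5.43, 5.39 and 5.51 at ZT4 and 4.42, 4.48, 3.96 and 5.00 at ZT16, so that the order of the groups was opposite, with changes of 0.53 ± 0.18 (adjusted p = 0.0616) and -0.22 ± 0.16. That difference between batches did not pass over all genes either (-0.76 ± 0.24, adjusted p = 0.447). Cpt1b in anti-Ly6G mice fell in July (-1.32 ± 0.41, adjusted p = 0.0398), where 1 of 3 ZT16 mice was at 0.996 against 11.6 and 5.84 in the others, and changed by -0.11 ± 0.35 in September. Angptl4 in anti-Ly6G mice changed by -0.45 ± 0.55 in July and by 0.47 ± 0.47 in September, and neither passed.

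**Figure D5:**
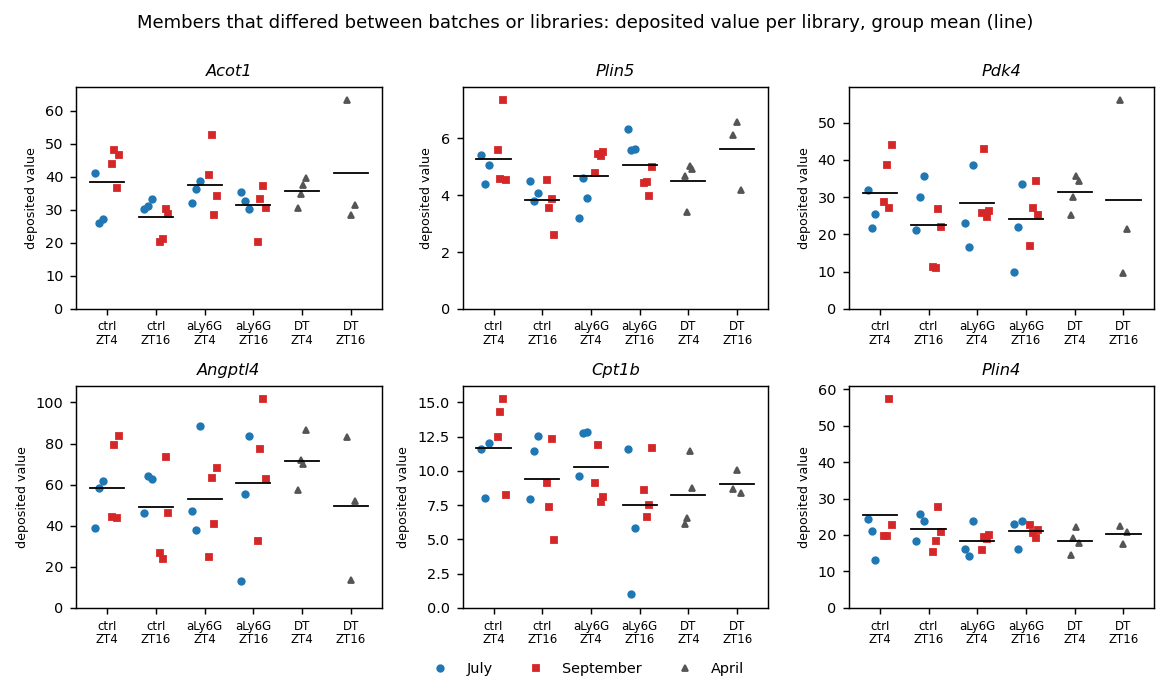
Deposited value (y axis, from 0) per library for 6 genes in the 6 groups (x axis), with batches marked and lines for group means. For Acot1 the September control mice at ZT16 all sit under those at ZT4, 1 ZT4 control mouse of September is far above the rest for Plin4, and Angptl4 and Pdk4 spread widely within groups.

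DT mice were compared with the others only through their time changes, a comparison chosen after the data had been seen. The time change was higher in DT than in control mice for 5 members and lower for 0, where 4.93% of all genes were higher and 8.86% lower. These were Etfb (0.48 ± 0.09, adjusted p = 9.5e-04), Acads (0.50 ± 0.11, adjusted p = 0.0026), Acaa2 (0.33 ± 0.10, adjusted p = 0.0235), Acadl (0.32 ± 0.10, adjusted p = 0.0361) and Plin5 (0.69 ± 0.23, adjusted p = 0.0428). Against anti-Ly6G mice it was higher for 2 members, Etfb (0.47 ± 0.09, adjusted p = 3.4e-04) and Acads (0.39 ± 0.11, adjusted p = 0.00906), and lower for 0 (7.44% and 11.6% of all genes). Both comparisons share the DT mice, so they are not independent. Etfb and Acads kept both calls whichever single library was left out, with differences of 0.41 to 0.51 and 0.46 to 0.54 against control mice. Without ZT16_DT April #1 the difference was 0.19 for Acadl and 0.20 for Acaa2, and neither passed. Without ZT4_DT April #1 they were 0.27 each and did not pass either. For Acadl 5 further libraries ended the call, ZT4_control July #1, ZT4_control September #3, ZT16_control September #2 and #4, and ZT4_DT April #2 (0.30 to 0.32), and for Plin5 11 of 21 libraries did (0.57 to 0.87 over all 21). ZT16_DT April #1 also had the highest alveolar macrophage sum of the DT mice (575.5, against 284.6 and 349.5 in the other ZT16 DT mice and 279 to 345 at ZT4), with 6 of 6 such markers reaching 1, and the lowest heart muscle sum (818.6, against 1363 and 1344). Of 8 alveolar type 2 markers, 4 were lower and 0 higher at ZT16 in DT mice (9.98% and 5.3% of all genes), with a median change of -0.49. Their summed value in DT mice overlapped between times, at 22700 to 27720 at ZT4 (median 25350) and 23050 to 25750 at ZT16 (median 25440). Without ZT16_DT April #1 the median change of the heart muscle markers in DT mice was 0.51, beside 0.23 with it, and that of the alveolar macrophage markers -0.01, beside 0.24. The part of any of these in the differences was not tested.

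Other genes of fatty acid handling that are not members were read from a list of 81, of which 79 were in the table and 76 were tested. In control mice 3 of the 76 rose and 7 fell, where 4.65% and 4.38% of all genes did. In anti-Ly6G mice 14 rose and 10 fell (10.6% and 10.4% of all genes), and in DT mice 3 rose and 8 fell (5.3% and 9.98%), which for DT mice is near the share of all genes. Over both treatments 17 rose and 12 fell (14.1% and 15.2%), with a median of 0.04 beside -0.10 for the 34 members. The count that fell over both treatments and the count that rose in control mice were also near the share of all genes. No gene of the list passed between anti-Ly6G and control mice. Those named here, among the genes of smallest p over both treatments, were split in direction. Acoxl, an acyl-CoA oxidase-like gene, fell (-1.37 ± 0.06, adjusted p = 8.7e-19), as did Vnn1, a pantetheinase (-0.69 ± 0.07), and Acot7, a thioesterase (-0.26 ± 0.05). Pdp1, the phosphatase that reactivates pyruvate dehydrogenase (0.32 ± 0.04), Acsl1, which activates long-chain fatty acids (0.38 ± 0.06), Slc27a4, a fatty acid transport protein (0.24 ± 0.04), and Abhd5, a coactivator of lipolysis (0.20 ± 0.04), rose. Acoxl fell in DT mice as well (-1.04 ± 0.12, adjusted p = 8.1e-07) and Acsl1 rose there (0.38 ± 0.12, adjusted p = 0.0284).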

How the data were processed

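The labels' protocols describe amplification of RNA from 35 left lung lobes (Ovation Single Cell kit) and TruSeq preparation. Build GRCm38, RSEM 1.2.20 and kallisto 0.43.1 stand beside cutadapt and CASAVA 1.8.2 in the submitters' processing notes, with no role or order. The authors deposited a normalised signal per gene, which is neither counts nor CPM, holds 0 zeros among 22211 genes and has a minimum of 0.0064. The sources used here do not state how it was normalised or whether batches were adjusted. Over genes, the September minus July difference divided by its SE had an SD of 0.516. That is smaller than independent genes would give in unadjusted values without any batch difference. Whether the values had been adjusted for batch before deposition was not tested, and the batch term was fitted to them as deposited. Whether values are per length is unknown, so levels are not compared between genes. Depth is unknown, and no counting interval is given.

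Table columns name a group and batch, and libraries are numbered within these by column. The labels speak of separate mice, so p-values measure the spread between mice. The filter on low values (1 or more in 3 or more libraries) passed 16786 genes and removed 5425. A limma model (version 3.58.1, R 4.3.3, eBayes with trend) was fitted to log2(value + 0.5) of all 35 libraries, with group means and a September against July term, two-sided, with Benjamini-Hochberg adjustment over all genes kept. Batches were compared in a second fit with 10 means of group and batch. Scripts were tested on simulated data. The members and lists were chosen with earlier results of these data known. All 34 members are named, those passing in any comparison in full, and at most 8 other pathway genes per comparison, by smallest p, of which 1 is not reported here. Alternatives were pseudocounts of 0.1 and 1, other filters, upper quartile and trimmed mean scaling, robust variance, no batch term, 1 batch, the compared groups only, and each library left out.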

Additional observations from a re-analysis of the deposited data

Results flagged for a closer look

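Values of each gene in each group of 4 to 10 mice were searched for a single mouse far from the rest, by Dixon's criterion at the 95% level. Of 170 groups of values examined, 9 had such a mouse, where chance alone gives about 1 in 20 (8.5). ZT4_control September #3 was high for Plin4 (57.35, next 24.5) and Plin5 (7.365, next 5.59). ZT4_control July #2 was low for Acadvl (89.2), ZT16_antiLy6G July #3 for Acaa2 (90.02), ZT4_antiLy6G September #3 for Eci2 (51.18) and ZT16_antiLy6G September #1 for Acot1 (20.39). ZT16_control September #1 was high for Eci1 (32.92), ZT4_antiLy6G September #1 for Pdk2 (56.29) and ZT4_antiLy6G September #3 for Crat (62.83).

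Differences in the time change between treatments also passed the test. The time change in DT mice was above that in control mice for Acadl (0.32), Acads (0.50), Etfb (0.48), Acaa2 (0.33) and Plin5 (0.69), and above that in anti-Ly6G mice for Acads (0.39) and Etfb (0.47), in limma's test with Benjamini-Hochberg adjustment. DT, genotype and batch cannot be told apart in them.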

How the results depend on the processing

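Of 1879 recomputed values of called members, 1669 stayed past the threshold in the same direction, 210 no longer passed and 0 reversed. The count of members called for the time change fell to 0 in control mice with July libraries only, to 3 and 4 in anti-Ly6G mice with July or September only, to 6 over both treatments with July only, and to 0 in DT mice when only the 2 DT groups were fitted. For the DT minus control difference it was 9 under upper quartile scaling, 3 with the compared groups only and 3 without both ZT4_control September #2 and #3 (chosen after seeing the data, as were the values without single libraries for uncalled members and marker lists), and for DT minus anti-Ly6G it was 6 under upper quartile scaling. Leaving out 1 library gave 8 to 12 members in control mice, 7 to 10 in anti-Ly6G mice, 0 to 3 in DT mice, 11 to 16 over both, 6 to 9 in July, 12 to 15 in September, 2 to 6 for DT minus control and 2 to 3 for DT minus anti-Ly6G. Upper quartile scaling moved the median of all genes by up to 0.09, with the largest shifts in the comparisons with DT mice. The median time change of all genes went from -0.0090 to 0.0586 in DT mice. In control mice it went from -0.0018 to -0.0148, and in anti-Ly6G mice from -0.0155 to -0.0351. The median for DT minus control went from -0.0042 to 0.0747, and that for DT minus anti-Ly6G from 0.0084 to 0.0940. Trimmed mean scaling was computed directly in place of edgeR's, and tests on counts (edgeR, DESeq2) were not run, since the table holds none. Calls within 1 treatment of 1 batch were not recomputed under the alternatives, and single batches give no DT value. No paired analysis was possible because the numbers in the table's columns match no numbers in the labels. Unknown depth limits low genes such as Ppara, Plin5 and Cpt1b.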
